A study of Mus musculus with 16 samples.

Results

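Strain differences in gene expression were measured in hybrid astrocytes, as the balance of RNA from the Cast and the 129 copy of each gene within a cell clone. A gene was studied when it lay on an autosome and each of the 5 astrocyte libraries held 20 or more reads that could be assigned to an allele, which was so for 10621 of the 50600 genes counted. Of these, 3262 (30.7%) leaned to the same strain in every clone and passed the test, 1289 to Cast (12.1%) and 1973 to 129 (18.6%). Most such leanings were small, and 640 genes (6.03%) reached a 2-fold difference. When a clone was left out, the number called was lowest without Astro_mC3 (2012) and Astro_mE6 (2049). Among the genes with the largest differences was the transcription factor Nfatc3, with almost all of its assigned reads from the 129 copy. The transcription factor Creb3 and the oestrogen-responsive gene Greb1 had almost all of theirs from the Cast copy.

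The cells came from hybrid embryonic stem cells of the strains 129Sv and Cast/EiJ, turned into neural progenitor cells (NPCs), cloned, and then differentiated with BMP4 into astrocytes. The 5 astrocyte libraries were poly(A)-enriched and came from 3 female clones (Astro_129, Astro_C2 and Astro_G4) and 2 male clones (Astro_mC3 and Astro_mE6), all untreated apart from the differentiation, with 1 library per clone. Here Astro_129 is the name of a clone, which like the others carried both genomes. Compared with them were 3 poly(A) NPC clones of the same hybrid (NPC_F5, female, and NPC_mG2 and NPC_mG6, male) and 4 male NPC clones made after ribosomal RNA depletion (Ch3, Ch5, Ch7 and Ch8, each the sum of 2 libraries). Each group is a set of single clones, so the spread given is between clones and not between cultures of a clone. The male clones had a 129 X chromosome, so their 129 genome was the maternal one, and for autosomal genes strain and parent of origin cannot be told apart. Sex and stem cell line cannot be told apart either.

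When cells hold the genomes of a pair of strains, the alleles of a gene meet the same transcription factors, signals and culture conditions. A difference between alleles can lie in sequence on the chromosome itself, such as a promoter, an enhancer or a part of the RNA that sets its stability, which is called a cis-regulatory difference. It can also lie in an epigenetic state that a clone keeps, and these were not told apart here. Imprinted genes are a further case, since their alleles are marked in the germline by the sex of the parent, and processed pseudogenes can draw reads from the gene they were copied from. Both classes are included in the counts over all genes, with 44 imprinted genes (11 called) and 103 pseudogenes (72 called, 61 of the 640 past 2-fold). Both are also described on their own. Astrocytes buffer potassium and glutamate around neurons, supply them with lactate and cholesterol, make glutathione and bind metals, and secrete proteins of the matrix and of innate immunity, and the gene lists described here follow those roles.

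The allele-specific reads numbered 30147717 in Astro_129, 26753109 in Astro_C2, 26805724 in Astro_G4, 27255381 in Astro_mC3 and 32518327 in Astro_mE6. Over all autosomal genes the Cast share of these reads was 47.6, 48.8, 50.6, 48.6 and 48.4%, in the same order of clones, which is used for all values that follow. The share of a gene at 50% has a 95% Wilson interval of 29.9 to 70.1% with 20 reads, 40.4 to 59.6% with 100 reads and 46.9 to 53.1% with 1000 reads, for counting error alone, since reads without molecular identifiers are not independent molecules. Where a clone had 0 reads of an allele, the share that 3 reads would make is given as its upper limit, with the same restriction. The read minimum had 41 genes at exactly 20 reads in their lowest library, and 54 genes at 19 reads were just outside it.

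The astrocyte label was checked on marker genes. All 12 astrocyte markers were above 1 CPM (counts scaled to library size) in every clone, with a summed level of 4059, 2677, 4642, 5822 and 6086 CPM, and the glutamate transporter gene Slc1a3 had the highest median over the clones (1009 CPM). Other markers were above it in 3 of the clones, such as Gfap at 2092 CPM in Astro_129. The 8 markers of the oligodendrocyte lineage summed to 375, 300.1, 425, 803 and 1658 CPM, most of it Olig1, while Sox10, which defines that lineage, was at 0 in all 5 libraries. The 7 neuronal markers summed to 871, 1289, 626, 636 and 448 CPM, nearly all of it Map2, with Rbfox3 at 0.0454 to 0.673 CPM. Microglial markers summed to at most 1.93 CPM (Itgam at 0 in all libraries), pluripotency markers to at most 0.847 CPM and the cycling markers Mki67 and Top2a to 3.66 to 12.8 CPM. Of the fibroblast markers Col1a1 stood out, at 200 CPM in Astro_C2 and 2.30 to 32.7 CPM in the other 4 clones. The part of these marker levels in the strain differences was not tested.

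Size and direction of the differences were as follows. A gene was called when its Cast share lay on the same side of 50% in all 5 clones and its adjusted p in edgeR was under 0.05, so each call described here holds its direction in 5 of 5 clones. The 129 direction was the more frequent, with 60.5% of the calls, but by how much depended on the scaling of the alleles. Cast-biased genes were 39.5% of the calls in this fit, which scales both alleles alike. They were 47.1% under TMM and 48.2% under DESeq2, which scale each allele column on its own. The cause of this change was not tested. The median absolute log2 ratio of Cast to 129 reads was 0.46 over called genes and 0.23 over all genes tested, and the median log2 ratio over all genes tested was -0.04. Of the Cast-biased genes 264 differed by less than 1.2-fold, 499 by 1.2 to 1.5-fold and 244 by 1.5 to 2-fold, while 178 differed by 2 to 4-fold, 46 by 4 to 8-fold and 58 by more. The 129-biased genes were spread in the same manner, with 443, 797 and 375 genes in the bands up to 2-fold and 233, 62 and 63 above. In terms of shares, 370 called genes were outside 35 to 65% Cast in every clone, and 88 were outside 15 to 85% in every clone, 47 towards Cast and 41 towards 129. Of these 88 genes 40 were pseudogenes and 37 coded for protein, 21 towards Cast and 16 towards 129. Without Astro_mC3 the counts were 794 Cast-biased and 1218 129-biased genes, and without Astro_mE6 806 and 1243, while leaving the pairing of alleles by library out of the fit gave 134 and 211.

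**Figure D1:**
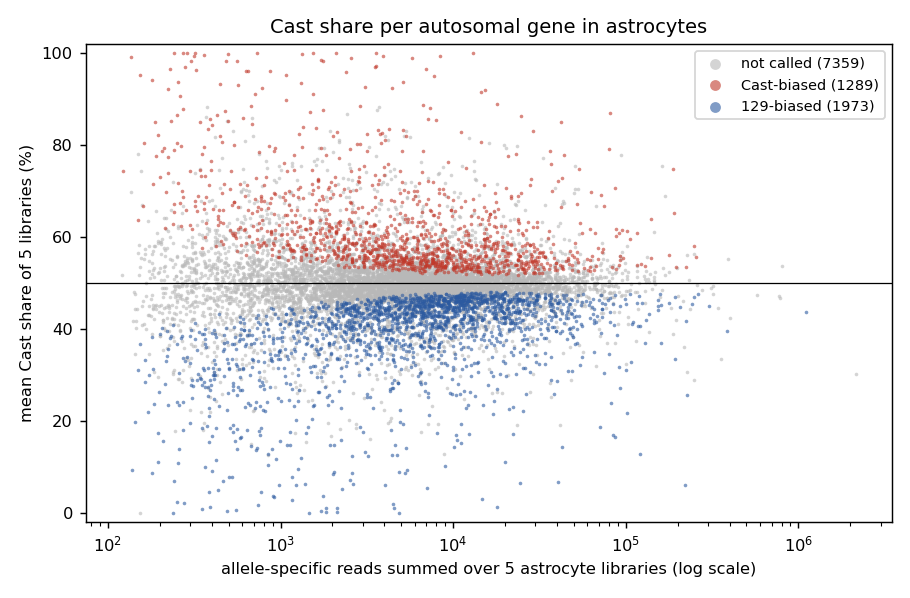
Mean Cast share of the 5 astrocyte libraries (y axis, %) against the allele-specific reads summed over them (x axis, log scale), 1 point per autosomal gene, with Cast-biased genes in red, 129-biased genes in blue and genes not called in grey. The 1289 Cast-biased and 1973 129-biased genes lie mostly close to 50%, and of the genes with 121 to 2085 reads 13.5% were called past 2-fold.

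Calls were also counted by depth. With the genes ranked by reads and split into 4 equal groups, in the group with the fewest reads (121 to 2085 over the 5 libraries) 28.0% were called and 13.5% were called past 2-fold, while in the group with the most reads (12559 and above) the shares were 33.6% and 3.47%. The median fold of called genes was 1.95 in the lowest group and 1.27 in the highest. Over all genes tested, called or not, the median absolute log2 ratio was 0.39 in the lowest group and 0.19 in the highest. The part of depth in these differences was not tested. Without an adjustment for the number of genes, edgeR gave 4546 genes a p under 0.05.

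The genes with the largest Cast bias, among protein-coding genes that had 100 or more such reads in every clone, work in unlike processes. Gstm3 (ENSMUSG00000004038.9, chromosome 3, 107963696 to 107969174 on GRCm38), a mu-class glutathione S-transferase that joins glutathione to reactive compounds, had Cast shares of 97.5, 99.6, 99.3, 99.7 and 99.1%. All clones were near the upper limit, and the log2 ratio was 7.07 ± 0.45 (SE, n = 5, edgeR adjusted p = 0.000918). Part of its transcript sequence is also found elsewhere, as 27.5% of its 31-base stretches occur more than once in the mouse genome (all such shares were measured on the older build NCBIM37, not on the GRCm38 of the positions), so its reads cannot be told apart from those of near copies there. Greb1 (ENSMUSG00000036523.16, chromosome 12, 16670615 to 16801394), known as an oestrogen-responsive gene, was at 95.5, 97.6, 98.1, 98.3 and 96.5%, with a log2 ratio of 5.20 ± 0.25 (SE, n = 5, edgeR adjusted p = 0.000493). For Creb3 (ENSMUSG00000028466.15, chromosome 4, 43562658 to 43567061), a transcription factor anchored in the endoplasmic reticulum, the shares were 97.1, 95.9, 98.2, 97.6 and 96.2% and the log2 ratio was 5.04 ± 0.21 (SE, n = 5, edgeR adjusted p = 0.000422). Their lowest clones were at 95.5 and 95.9%. Ccdc141, a coiled-coil protein, was at 96.1, 98.1, 95.6, 95.7 and 97.1% and Mapk13, a stress-activated kinase, at 94.3, 93.9, 97.3, 98.4 and 96.5%, with log2 ratios of 4.80 ± 0.22 and 4.61 ± 0.30 (edgeR adjusted p = 0.000493 and edgeR adjusted p = 0.000960). Lyz1, a lysozyme with 34.0% of its 31-base stretches present more than once, was at 98.3, 100, 98.2, 96.4 and 98.4%, with a log2 ratio of 6.05 ± 0.60 (SE, n = 5, edgeR adjusted p = 0.00268). Its 0 reads of 129 in Astro_C2 allow up to 0.765%.

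Others of the large Cast differences rested on clones that were unlike each other. Aga, which encodes a lysosomal enzyme that takes sugar chains off asparagine, was at 99.5, 100, 63.3, 99.1 and 99.9%, so that Astro_G4 read much 129 RNA where the other 4 clones read almost none. Its log2 ratio of 6.34 ± 1.61 (SE, n = 5, edgeR adjusted p = 0.0354) lost its call without Astro_129, Astro_C2, Astro_mC3 or Astro_mE6 (adjusted p 0.0953 to 0.110) and was 8.03 without Astro_G4. Among the NPC clones Aga was at 76.2% in NPC_mG2 and 71.0% in NPC_mG6, with too few reads in NPC_F5. In Ch3, Ch5, Ch7 and Ch8 it was at 100, 65.2, 0 and 68.8%, so Ch7 read only the 129 copy, on 51 reads. The 0 reads allow up to 2.63% of 129 in Ch3 and 5.88% of Cast in Ch7. Cers4, a ceramide synthase, was at 99.5, 72.5, 93.6, 98.2 and 100%, with Astro_C2 the lowest, and its log2 ratio of 4.82 ± 1.18 (SE, n = 5, edgeR adjusted p = 0.0320) lost its call without Astro_129, Astro_G4, Astro_mC3 or Astro_mE6 (adjusted p 0.0605 to 0.103) and was 6.0 without Astro_C2. The motor adaptor gene Myrip was at 100, 93.4, 91.8, 90.1 and 92.9% and the myosin gene Myo16 at 99.9, 84.6, 92.1, 90.4 and 90.6%, with Astro_129 nearest to 100% in both. Their log2 ratios were 4.19 ± 0.97 (SE, n = 5, edgeR adjusted p = 0.0275), and 3.77 ± 0.92 (SE, n = 5, edgeR adjusted p = 0.0315). Both calls were lost when Astro_C2, Astro_G4, Astro_mC3 or Astro_mE6 was left out, with adjusted p of 0.0517 to 0.0813 for Myrip and 0.0620 to 0.0899 for Myo16, and without Astro_129 their log2 ratios were 3.53 and 3.13. The clones with 0 reads of 129 allow up to 0.445% for Aga in Astro_C2, 0.811% for Cers4 in Astro_mE6 and 0.190% for Myrip in Astro_129.

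On the 129 side the largest difference among these genes was that of Mt1 (ENSMUSG00000031765.8, chromosome 8, 94178883 to 94180327 on GRCm38), a metallothionein that binds zinc and copper and is induced by metals in astrocytes. Its Cast shares were 0, 0.119, 0.0349, 1.41 and 4.69%, on 1705 to 5732 allele-specific reads a clone, and the 0 Cast reads in Astro_129 allow a share of up to 0.0550%. The Cast share was lowest in the 3 female clones and highest in Astro_mE6. The difference, female minus male, was -6.11 ± 1.12 on the log2 scale and did not pass the test (SE, 3 and 2 clones, edgeR adjusted p = 0.846). Among the poly(A) NPC clones the female NPC_F5 was at 0.0487% and the male NPC_mG2 and NPC_mG6 at 0.0869 and 3.94%. The male clones Ch3, Ch5, Ch7 and Ch8 were at 0.806, 17.1, 5.19 and 4.39%. The log2 ratio was -7.82 ± 1.43 (SE, n = 5, edgeR adjusted p = 0.0137), and without Astro_C2 the call was lost (log2 -7.52, adjusted p 0.0514). Without Astro_129, Astro_G4, Astro_mC3 or Astro_mE6 the log2 ratio was -7.02, -7.00, -8.73 and -9.17. Metallothionein genes are known to be switched on through metal response elements, short repeats near the start site that bind the metal-sensing factor MTF1, and the reference promoter of Mt1 is printed to show where letters of that kind occur. It is the RefSeq promoter on GRCm38.p6 at chr8:94178839-94179138, plus strand, and capitals mark the 3 matches, on either strand, to TGCACNC or TGCGCNC, a search chosen after the values of Mt1 were seen. The start that this promoter belongs to lies inside the gene's span as given here, which begins further upstream.
Mt1: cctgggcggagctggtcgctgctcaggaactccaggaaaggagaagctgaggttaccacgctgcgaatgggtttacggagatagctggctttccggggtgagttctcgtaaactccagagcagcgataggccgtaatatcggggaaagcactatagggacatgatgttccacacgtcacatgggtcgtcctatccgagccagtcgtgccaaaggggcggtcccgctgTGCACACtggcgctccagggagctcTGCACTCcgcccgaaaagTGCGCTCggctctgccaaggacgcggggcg
At least 1 such match is found in 25.7% of the 32851 promoters of the same length in the table and at least 3 in 1.97%. This is the sequence of the reference strain, which is neither parent here. Bases that differ between Cast and 129 in this stretch were not analysed here.

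Nfatc3 (ENSMUSG00000031902.10, chromosome 8, 106058818 to 106130537), a transcription factor switched on by calcium through calcineurin, had Cast shares of 1.34, 1.15, 1.36, 0.648 and 0.723% and a log2 ratio of -6.55 ± 0.20 (SE, n = 5, edgeR adjusted p = 0.000246). The Cast copy was nearly unread in all clones. Cnih1, which helps load receptors and growth factors into transport vesicles, was at 2.54, 3.69, 6.11, 2.97 and 2.89% with a log2 ratio of -4.78 ± 0.23 (SE, n = 5, edgeR adjusted p = 0.000493), and 21.3% of its stretches occur more than once. Acss1, which makes acetyl-CoA from acetate in mitochondria, was at 4.67, 12, 1.58, 3.80 and 3.76%, the neuronal pentraxin gene Nptx1 at 18, 4.48, 3.23, 3.43 and 4.90% and the receptor gene Tnfrsf18 at 6.80, 11.8, 1.44, 6.98 and 4.76%. In Nptx1 the clone Astro_129 read more Cast RNA than the others. The log2 ratios were -4.42 ± 0.45 (SE, n = 5, edgeR adjusted p = 0.00280) for Acss1, -4.14 ± 0.49 (SE, n = 5, edgeR adjusted p = 0.00401) for Nptx1, and -3.97 ± 0.42 (SE, n = 5, edgeR adjusted p = 0.00302) for Tnfrsf18. Tnfrsf18 lies at the end of chromosome 4 where Astro_G4 had a median Cast share of 7.29% over the 128 genes of the 20 Mb window, and Astro_G4 was also its lowest clone.

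Several other 129-biased genes had 1 clone apart. The transporter gene Abca8b was at 5.48, 0.498, 0.703, 20.3 and 0%, highest in Astro_mC3, and the lipid phosphatase gene Plpp4 at 0, 0, 1.76, 4.32 and 24.2%, highest in Astro_mE6. Ifit2, an interferon-induced gene, was at 4.24, 20.6, 0.214, 3.28 and 2.09%, highest in Astro_C2. The clones with 0 Cast reads allow up to 0.311% for Abca8b in Astro_mE6 and 0.568 and 0.564% for Plpp4 in Astro_129 and Astro_C2. Their log2 ratios were -5.67 ± 1.31, -5.20 ± 1.28 and -4.68 ± 0.90, with edgeR adjusted p of 0.0271, 0.0326 and 0.0159 (n = 5). The call of Abca8b was lost without Astro_129, Astro_C2, Astro_G4 or Astro_mE6 (adjusted p 0.0519 to 0.0856), and its log2 ratio was -6.74 without Astro_mC3. That of Plpp4 was lost without Astro_129, Astro_C2, Astro_G4 or Astro_mC3 (adjusted p 0.0613 to 0.0927), with a log2 ratio of -6.45 without Astro_mE6. That of Ifit2 was lost without Astro_mC3 or Astro_mE6 (adjusted p 0.0599 and 0.0606), and its log2 ratio was -5.63 without Astro_C2 and -4.03 without Astro_G4.

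**Figure D2:**
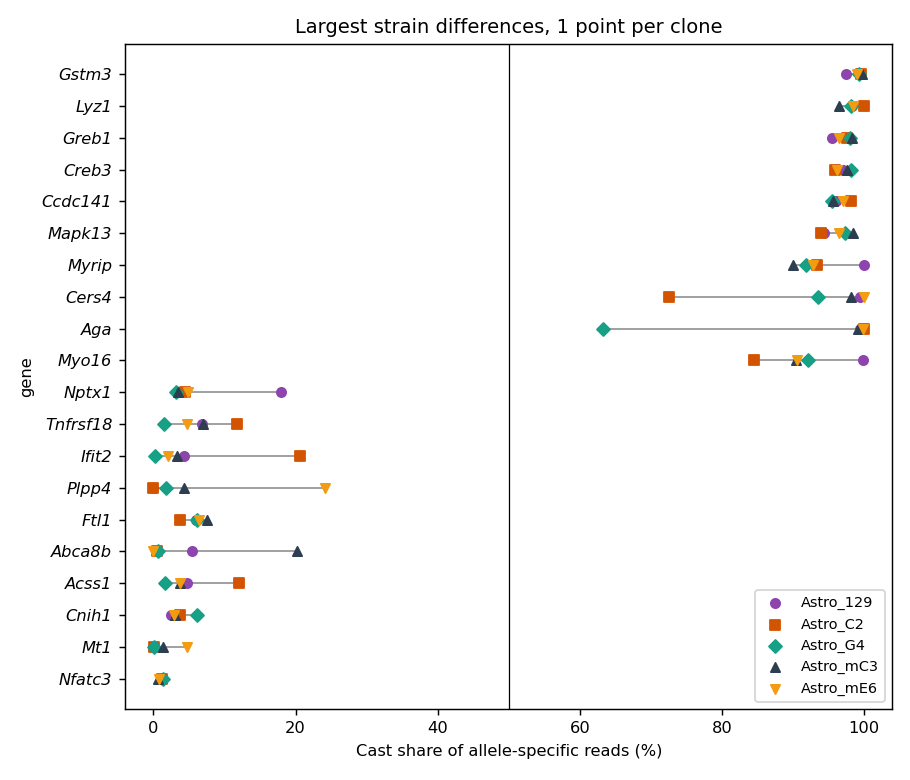
Cast share of allele-specific reads (x axis, %) of the 10 protein-coding genes with the largest called difference in each direction (y axis), 1 symbol per clone, with a line from the lowest to the highest clone. Clones that stand apart include Aga in Astro_G4 (63.3%), Cers4 in Astro_C2 (72.5%), Plpp4 in Astro_mE6 (24.2%), Ifit2 in Astro_C2 (20.6%), Abca8b in Astro_mC3 (20.3%) and Nptx1 in Astro_129 (18%).

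Called genes past 2-fold with the most reads were taken next, first those towards Cast. Cst3 (ENSMUSG00000027447.6, chromosome 2, 148871722 to 148875512), cystatin C, a secreted inhibitor of cysteine proteases, had 12101 to 59647 allele-specific reads a clone and Cast shares of 69.3, 77, 71.2, 75.6 and 81%. All clones were well above 50%, and the log2 ratio was 1.59 ± 0.15 (SE, n = 5, edgeR adjusted p = 0.00232). The gene of the LIF receptor, Lifr, through which LIF and CNTF drive astrocyte differentiation, was at 74, 61.9, 75, 70.9 and 71.8%, and Rflnb, a filamin-binding protein, at 70.4, 76.5, 85.8, 81.1 and 82.5%, with log2 ratios of 1.29 ± 0.14 (SE, n = 5, edgeR adjusted p = 0.00333), and 1.98 ± 0.21 (SE, n = 5, edgeR adjusted p = 0.00309). Cntn1, an adhesion protein of the contactin family, was at 60.2, 63, 77.6, 61.7 and 71.7% with a log2 ratio of 1.03 ± 0.20 (SE, n = 5, edgeR adjusted p = 0.0170), and lost its call without Astro_mE6 (log2 0.95, adjusted p 0.0614). Gas6, a ligand of the receptors Tyro3, Axl and Mertk used in the uptake of dying cells, was at 85.3, 98.3, 71.9, 82.4 and 96.7%. Its depth ran from 34 to 35795 reads between clones, and its log2 ratio of 3.44 ± 0.89 (SE, n = 5, edgeR adjusted p = 0.0373) lost its call without any of the clones other than Astro_G4 (adjusted p 0.0698 to 0.109), while without Astro_C2, Astro_G4 and Astro_mE6 the log2 ratio was 2.72, 4.15 and 2.90.

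On the 129 side, Sptan1, the spectrin of the membrane skeleton in brain, was at 37.8, 28.4, 38, 31.5 and 31.2% and Mtch1, a protein of the outer mitochondrial membrane, at 33.3, 36.4, 34.5, 32.9 and 27%. Both leaned to 129 in all clones, within 28.4 to 38% and 27 to 36.4%, with log2 ratios of -1.0 ± 0.12 (SE, n = 5, edgeR adjusted p = 0.00380), and -1.04 ± 0.10 (SE, n = 5, edgeR adjusted p = 0.00237). Ftl1, the light chain of ferritin, which stores iron, was at 6.06, 3.67, 6.12, 7.61 and 6.39% with a log2 ratio of -4.01 ± 0.19 (SE, n = 5, edgeR adjusted p = 0.000493), but 82.0% of its 31-base stretches occur more than once in the genome, so the gene and its copies are not told apart. Serpinf1, a secreted serpin known as PEDF, was at 18.4, 21.5, 2.26, 20.8 and 1.63%, with Astro_G4 and Astro_mE6 far below the other 3 clones. Its log2 ratio of -3.34 ± 0.91 (SE, n = 5, edgeR adjusted p = 0.0427) lost its call when any clone was left out (log2 -3.84 to -2.70, adjusted p 0.0706 to 0.0804).

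Genes that mark astrocytes or serve in them leaned in both directions. Of 42 astrocyte genes tested, 6 leaned to Cast and 9 to 129 (35.7% called, against 30.7% of all genes), with a median log2 ratio of -0.10 against -0.04 over all genes tested. Of the 42, 8 were past 2-fold, against 6.03% of all genes, and the median absolute log2 ratio was 0.48 against 0.23. Aldh1l1, a folate enzyme used as an astrocyte marker, leaned to Cast, with shares of 81.2, 85.4, 86, 78.8 and 87.5% and a log2 ratio of 2.39 ± 0.16 (SE, n = 5, edgeR adjusted p = 0.00108). Its lowest clone, Astro_mC3, was at 78.8%.

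For glutathione and detoxification, 10 of 74 genes leaned to Cast and 16 to 129 (35.1% called, against 30.7% of all genes), a split that turned to 16 and 14 under DESeq2, and the median absolute log2 ratio was 0.41 against 0.23 over all genes tested. Beside Gstm3, the pi-class transferase gene Gstp2 was at 100, 92.7, 100, 93.7 and 95.6% on 30 to 113 reads a clone, and the microsomal transferase gene Mgst2 at 90.6, 84.4, 90.2, 81.4 and 80%. All 3 leaned to Cast in all clones, with log2 ratios for Gstp2 of 4.49 ± 0.52 (SE, n = 5, edgeR adjusted p = 0.00380), and for Mgst2 of 2.55 ± 0.24 (SE, n = 5, edgeR adjusted p = 0.00230). For Gstp2, 70.5% of the stretches occur more than once in the genome, and the 0 reads of 129 in Astro_129 and Astro_G4 allow up to 10 and 6.67%. Gstm3 and Mgst2 lie on chromosome 3, which in Astro_G4 leaned to Cast as a whole (median 65.7%), and both were at 80.0% or more in the other 4 clones too.

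Metabolic lists were mixed. Of 32 genes of glycolysis and lactate, 8 leaned to Cast and 7 to 129 (46.9% called, against 30.7% of all genes), and 10 and 6 under TMM or 11 and 6 under DESeq2, with a median log2 ratio of 0.15. Aldoc (ENSMUSG00000017390.15, chromosome 11, 78323073 to 78327781), the aldolase of brain astrocytes, was at 18.7, 29.3, 12.5, 27.9 and 40.4%, lowest in Astro_G4 and nearest to even in Astro_mE6. Its log2 ratio was -1.62 ± 0.35 (SE, n = 5, edgeR adjusted p = 0.0219), and it lost its call without Astro_129, Astro_C2 or Astro_mC3 (adjusted p 0.0592 to 0.0651). The enolase gene Eno3 was at 36.1, 27.3, 30, 30.2 and 26.1% and the pyruvate dehydrogenase kinase gene Pdk1, a brake on pyruvate use in mitochondria, at 29.6, 30.8, 28.4, 34 and 30.6%, both on the 129 side in all clones, with log2 ratios of -1.21 ± 0.14 (SE, n = 5, edgeR adjusted p = 0.00360), and -1.18 ± 0.06 (SE, n = 5, edgeR adjusted p = 0.000572). Of 30 genes of cholesterol synthesis, 4 leaned to Cast and 6 to 129 (33.3% called), and 5 and 5 under TMM or 6 and 5 under DESeq2. Here 6 of the 30 share stretches at that limit. Pmvk, a kinase of the mevalonate pathway, was at 27.1, 28.1, 42.6, 25 and 26.3%, where Astro_G4 stood apart as chromosome 3 did in that clone. Acat2, which joins acetyl-CoA units, was at 67.1, 67.4, 68.5, 62.2 and 67.3% (44.9% of its stretches occur more than once). The sterol enzyme gene Hsd17b7, on chromosome 1, which leaned to 129 in Astro_129, was at 37.2, 42.9, 38.6, 39.3 and 41.8%. Their log2 ratios were -1.26 ± 0.19 (SE, n = 5, edgeR adjusted p = 0.00750), 0.99 ± 0.07 (SE, n = 5, edgeR adjusted p = 0.00102), and -0.59 ± 0.06 (SE, n = 5, edgeR adjusted p = 0.00300), so differences in this pathway were mostly below 2-fold.

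Genes of mitochondria and lysosomes leaned in both directions. Of 87 genes of oxidative phosphorylation, 14 leaned to Cast and 20 to 129 (39.1% called, against 30.7% of all genes). Of the 87, 3 were past 2-fold, against 6.03% of all genes, and 21 have at least 20% of their stretches in more than 1 place in the genome, against 8.99% of tested genes. The complex I gene Ndufa12 was at 32.7, 32.6, 28.7, 27.6 and 26.7% (24.5% of its stretches present more than once), the cytochrome oxidase gene Cox6c at 30.3, 31.4, 39.6, 30.9 and 30.3% and its assembly factor gene Cox18 at 37.9, 28, 35.1, 32.4 and 33.5%. All 3 leaned to 129 by about 2-fold, with log2 ratios of -1.25 ± 0.08 (SE, n = 5, edgeR adjusted p = 0.000953), -1.06 ± 0.11 (SE, n = 5, edgeR adjusted p = 0.00286), and -1.0 ± 0.11 (SE, n = 5, edgeR adjusted p = 0.00316). Of 91 lysosomal genes, 19 leaned to Cast and 13 to 129 (35.2% called), and 6 were past 2-fold. Beside Aga, the proton pump gene Atp6v0e was at 25.4, 21.8, 21, 22.8 and 23.5% and Galns, which breaks down keratan sulfate, at 64.1, 70.8, 78.4, 74.6 and 73.5%, in opposite directions, with log2 ratios of -1.76 ± 0.06 (SE, n = 5, edgeR adjusted p = 0.000277), and 1.40 ± 0.16 (SE, n = 5, edgeR adjusted p = 0.00354).

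Immune genes also leaned in both directions. Of 29 interferon-stimulated genes, 5 leaned to Cast and 4 to 129 (31% called, against 30.7% of all genes), with a median absolute log2 ratio of 0.58 against 0.23 over all genes tested. The antiviral GTPase genes Mx1 and Mx2, which the annotation classes as pseudogenes, were at 99, 98.6, 98.6, 99.7 and 99% and 97.6, 96.1, 94.8, 94.7 and 96.8%, with log2 ratios of 6.54 ± 0.25 (SE, n = 5, edgeR adjusted p = 0.000354), and 4.65 ± 0.23 (SE, n = 5, edgeR adjusted p = 0.000510). The lowest clone was at 98.6% for Mx1 and 94.7% for Mx2. Of 17 genes of MHC and antigen processing, 4 leaned to Cast and 3 to 129 (41.2% called). The class I gene H2-D1 was at 5, 1.39, 7.46, 7.41 and 1.01% on 20 to 198 reads a clone (28.6% of its stretches present more than once), and Mr1, which presents vitamin metabolites to T cells, at 9.09, 35.3, 13.2, 14.2 and 29.8%. Both leaned to 129, with log2 ratios of -4.80 ± 0.51 (SE, n = 5, edgeR adjusted p = 0.00313), and -2.10 ± 0.42 (SE, n = 5, edgeR adjusted p = 0.0180), while without Astro_mC3 the call of Mr1 was lost (log2 -1.98, adjusted p 0.0656), and without Astro_mE6 the log2 ratio of H2-D1 was -4.20. Mr1 lies on chromosome 1, in a 20 Mb window where Astro_129, its lowest clone, had a median Cast share of 32.2%. H2-DMa, which loads peptides onto class II molecules, was at 71.8, 69.2, 60.2, 50.7 and 60.9% with a log2 ratio of 0.75 ± 0.21 (SE, n = 5, edgeR adjusted p = 0.0448), and its call was lost without Astro_129, Astro_C2, Astro_G4 or Astro_mE6 (log2 0.60 to 0.79, adjusted p 0.0776 to 0.124). Of 23 genes of complement, serpins and the acute phase, 5 leaned to Cast and 6 to 129 (47.8% called), and 5 and 4 under TMM or 6 and 5 under DESeq2. Serpinb6a, an intracellular serpin, was at 3.78, 12.9, 4.92, 16.2 and 6.45%, low in all clones, with a log2 ratio of -3.58 ± 0.42 (SE, n = 5, edgeR adjusted p = 0.00401).

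Of 90 genes of the extracellular matrix, which astrocytes secrete, 7 leaned to Cast and 16 to 129 (25.6% called, against 30.7% of all genes), and 14 of those 23 were past 2-fold, as were 640 of all 3262 called genes (6.03% of all genes). The median absolute log2 ratio of the list was 0.51 against 0.23 over all genes tested. The collagen gene Col20a1 was at 10, 14.3, 12.9, 18.6 and 14.1% and Reln, which guides migrating neurons, at 2.91, 18.5, 34.4, 13.3 and 29.9%, both towards 129, while Ltbp1, which holds TGF-beta in the matrix, was at 68.4, 69.6, 87.6, 78.5 and 85%. Col20a1 stayed within 10 to 18.6%, whereas Reln ran from 2.91% in Astro_129 to 34.4% in Astro_G4. Their log2 ratios were -2.66 ± 0.16 (SE, n = 5, edgeR adjusted p = 0.000860), -2.10 ± 0.53 (SE, n = 5, edgeR adjusted p = 0.0346), and 1.89 ± 0.31 (SE, n = 5, edgeR adjusted p = 0.0100). The call of Reln was lost without Astro_C2, Astro_mC3 or Astro_mE6 (log2 -2.38 to -1.96, adjusted p 0.0683 to 0.114).

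Proteasome and ribosome genes leaned in both directions. Of 42 proteasome genes, 5 leaned to Cast and 9 to 129 (33.3% called, against 30.7% of all genes), and 7 and 6 under TMM or 8 and 7 under DESeq2. Of the 42, 10 have at least 20% of their stretches in more than 1 place in the genome. Psmd8 was at 30.9, 32.9, 33.6, 31.3 and 30% and Psmd9 at 35.8, 40.6, 39.2, 40.9 and 38%, with log2 ratios of -1.11 ± 0.05 (SE, n = 5, edgeR adjusted p = 0.000493), and -0.65 ± 0.06 (SE, n = 5, edgeR adjusted p = 0.00230). Psmd4, on chromosome 3, was at 69.8, 56.5, 79.8, 64.6 and 70.7%, highest in Astro_G4, with a log2 ratio of 1.14 ± 0.24 (SE, n = 5, edgeR adjusted p = 0.0207), and its call was lost without Astro_129, Astro_mC3 or Astro_mE6 (log2 1.11 to 1.21, adjusted p 0.0579 to 0.0715) and without both Astro_129 and Astro_G4, where the log2 fold change of Psmd4 was 0.84. Of 76 ribosomal protein genes, 20 leaned to Cast and 20 to 129 (52.6% called), and 22 and 15 under TMM or 23 and 21 under DESeq2. This was the highest share of the lists, and 68 of the 76 have at least 20% of their stretches in more than 1 place in the genome. Rps15 was at 15, 13.8, 14.1, 14.7 and 13.9%, Rps6 at 83.4, 79.5, 83.4, 84.4 and 83.5% and Rpl23a at 72.9, 66.8, 65.6, 69.7 and 70.1%, each within a narrow range over the clones, with log2 ratios of -2.58 ± 0.04 (SE, n = 5, edgeR adjusted p = 3.31e-05), 2.28 ± 0.08 (SE, n = 5, edgeR adjusted p = 0.000306), and 1.16 ± 0.08 (SE, n = 5, edgeR adjusted p = 0.00113). For them 53.3, 94.8 and 94.7% of the stretches occur more than once, so reads of the gene and of its copies cannot be told apart.

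Of 306 zinc finger genes with names in Zfp, many of them repressors of transcription, 27 leaned to Cast and 57 to 129 (27.5% called, against 30.7% of all genes), and 8 passed 2-fold, against 6.03% of all genes. Zfp36, which encodes tristetraprolin, a protein that speeds the decay of inflammatory messenger RNAs, was at 0, 0, 1.72, 1.22 and 0%, with 3 Cast reads among 552 (edgeR adjusted p = 0.00147, n = 5). A count of 3 reads is 0.543% of these reads, so no fold is given, and the 0 Cast reads in Astro_129, Astro_C2 and Astro_mE6 allow up to 2.16, 3.30 and 2.42%. Zfp14 was at 29.7, 21.8, 20.4, 22.5 and 19.9%, with a log2 ratio of -1.77 ± 0.13 (SE, n = 5, edgeR adjusted p = 0.00124), and Astro_129 was its highest clone. Zfp970 was at 100, 100, 98, 84.4 and 82.7% (74.8% of its stretches present more than once), with a log2 ratio of 3.79 ± 0.85 (SE, n = 5, edgeR adjusted p = 0.0245), and its call was lost without Astro_C2, Astro_G4 or Astro_mC3 (adjusted p 0.0542 to 0.0585), with log2 ratios of 3.47, 3.47 and 4.50, and 4.58 without Astro_mE6. Its 0 reads of 129 in Astro_129 and Astro_C2 allow up to 5 and 4.11%.

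**Figure D3:**
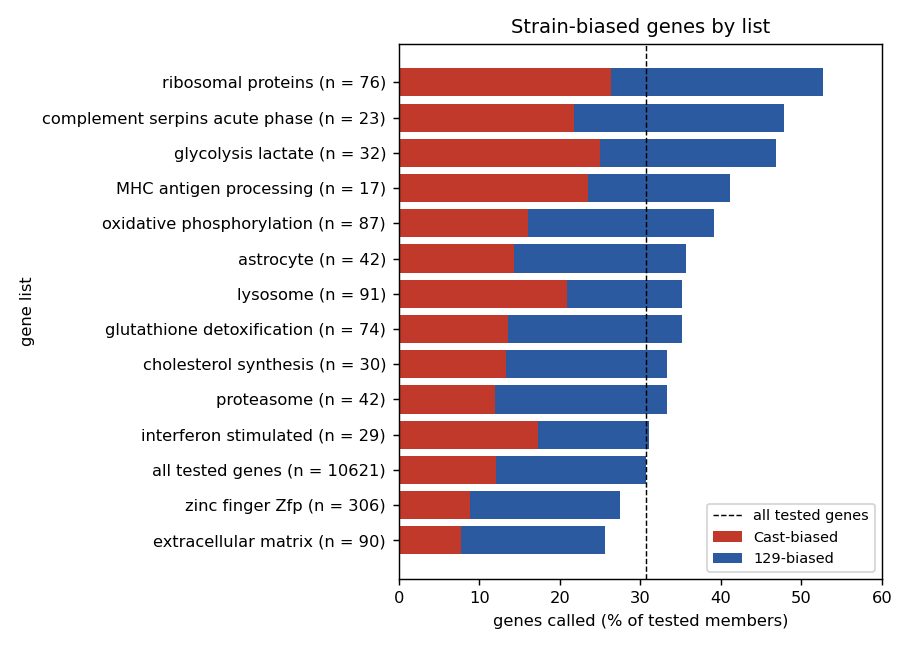
Share of the tested members of each gene list that were called (x axis, %), with Cast-biased genes in red and 129-biased genes in blue, and the number tested beside each list name. The dashed line is the 30.7% of all genes tested, and the lists run from 25.6% (extracellular matrix) to 52.6% (ribosomal proteins). The split by direction turned under TMM and under DESeq2 for complement and proteasome genes. For glutathione and cholesterol genes it turned under DESeq2 but not under TMM (11 and 15, and 5 and 5). Ribosomal genes, even in the main fit, had more Cast calls under TMM and under DESeq2.

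Promoters were looked at for a shared sequence feature. Of the 10474 genes tested outside the imprinted genes and pseudogenes, 8361 matched a RefSeq promoter on GRCm38.p6 (the first in the table where a gene has several), which runs from 250 bases before to 50 after the start. The letters TATAAA, on either strand, were in 5.85% of these, 6.24% of those of called genes, 7.74% of those called past 2-fold and 5.67% of those not called, and in 13.6% of all 32851 promoters in the table. The median number of CG pairs was 22 in tested genes and 19 in those past 2-fold. The shares among tested genes are near each other and are given as a description. Promoters with these letters were found for 4 of the named genes of the lists and of the largest differences that were past 2-fold. Those of Cntn1 and Mgst2 lie inside the gene, at other starts than its first, and are not printed. Those of Ftl1 at chr7:45459837-45460136 on the minus strand and of H2-D1 at chr17:35262844-35263143 on the plus strand lie at the start of the gene and are shown, with TATAAA in capitals. The promoter is a place where cis-regulatory differences can lie, and the choice to print these was made after the values were seen.
Ftl1: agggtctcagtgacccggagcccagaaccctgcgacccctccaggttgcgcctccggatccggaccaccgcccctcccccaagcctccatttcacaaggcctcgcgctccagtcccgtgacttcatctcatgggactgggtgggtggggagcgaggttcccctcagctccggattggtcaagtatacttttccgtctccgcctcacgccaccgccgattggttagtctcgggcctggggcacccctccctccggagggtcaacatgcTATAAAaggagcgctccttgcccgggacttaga
H2-D1: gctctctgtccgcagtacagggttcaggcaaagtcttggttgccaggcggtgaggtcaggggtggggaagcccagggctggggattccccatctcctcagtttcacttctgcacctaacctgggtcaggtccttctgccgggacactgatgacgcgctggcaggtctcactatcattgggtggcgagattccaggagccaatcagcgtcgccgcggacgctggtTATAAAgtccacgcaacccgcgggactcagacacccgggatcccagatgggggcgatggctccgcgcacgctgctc
As for Mt1, these are reference bases and not those of the strains, and a match is no evidence of a working site.

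By position, called genes were found on all 19 autosomes. The share called ran from 29.8% on chromosome 7 to 41.5% on chromosome 16, apart from chromosomes 18 (9.18%), 3 (13%), 1 (18.5%), 4 (22.1%) and 12 (23.1%). These 5 are the chromosomes on which Astro_129 or Astro_G4 had windows of 20 Mb with a median Cast share outside 40 to 60%. Without the genes of such windows, 3368 of 8676 genes were called, and without the 2 clones, a setting added after the data were seen, 2439 of 11161. Neighbouring called genes often leaned the same way: of 1136 pairs of adjacent tested genes that were both called, 723 (63.6%) had the same direction. The share was 65.2% for pairs less than 10 kb apart, 64.4% from 10 to 100 kb, 61.8% from 100 to 1000 kb and 51.9% (27 of 52) beyond. The 60.5% of calls towards 129 is not the share of same-direction pairs that calls placed at random would give. That share was not worked out, and whether 63.6% exceeds it was not tested. The longest runs of adjacent genes called in the same direction had 6 genes. They were Fam131a to Vps8 on chromosome 16 (129), Fan1 to Nsmce3 on chromosome 7 (Cast) and Nudt12 to Vapa on chromosome 17 (Cast).

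Imprinted genes carry a mark of the parent and not of the strain, and are given here on their own. Of 44 imprinted genes tested 11 were called (25%, against 30.7% of all genes), 3 to Cast and 8 to 129, where all genes had 12.1 and 18.6%. For the genes listed as expressed from the maternal allele, which here is 129 in the male clones, 6 of 22 leaned to 129 and 2 away from it (36.4% called). For the genes of the paternal allele 1 of 22 leaned to Cast and 2 away (13.6% called), a split that turned to 4 and 3 under DESeq2. The clearest was Pon2, a paraoxonase listed as maternal, with 0.163, 7.88, 2.74, 2.46 and 1.88% and a log2 ratio of -5.40 ± 0.74 (SE, n = 5, edgeR adjusted p = 0.00601). Gnas, a signalling G protein, was at 40, 39.7, 34.4, 40 and 37.3%, Htra3 at 36.8, 38.5, 42.4, 36.3 and 42.4% and Ube3a, the ubiquitin ligase of Angelman syndrome, at 43.1, 40.6, 42.3, 41.7 and 45.3%, all mildly towards 129. The shares of Gnas rest on 51 to 141 allele-specific reads a clone and those of Htra3 on 33 to 259. Gnas was at 1116 to 1794 CPM, so only a small part of its reads could be assigned to an allele. Its shares in NPC_F5, NPC_mG2 and NPC_mG6 were 58.5, 65.7 and 40.5%, and it was not called there. Htra3 and Ube3a leaned to 129 in each of these NPC clones. Of the paternal list, Plagl1 was at 35.2, 30.5, 34.2, 24.9 and 32.7% and Pde10a at 42.2, 41.5, 45.2, 44.6 and 49%, against the listed allele, and Inpp5f at 51.2, 52.7, 54, 51.8 and 52.6%. In NPC_F5, NPC_mG2 and NPC_mG6 Plagl1 was instead at 45.7, 99.6 and 17.3% and was not called. In Ch3, Ch5, Ch7 and Ch8 it was at 100, 6.12, 1.41 and 0%, so NPC clones differed in the allele they read. The 0 reads allow up to 3.66% of 129 in Ch3 and 5.56% of Cast in Ch8. The log2 ratio of Plagl1 was -1.13 ± 0.11 (SE, n = 5, edgeR adjusted p = 0.00280). For Pde10a it was -0.32 ± 0.07 (SE, n = 5, edgeR adjusted p = 0.0256), and for Inpp5f 0.14 ± 0.04 (SE, n = 5, edgeR adjusted p = 0.0346). The call of Pde10a was lost without Astro_129, Astro_C2, Astro_G4 or Astro_mC3 (log2 -0.33 to -0.27, adjusted p 0.0513 to 0.0788) and that of Inpp5f without Astro_C2, Astro_G4, Astro_mC3 or Astro_mE6 (log2 0.12 to 0.15, adjusted p 0.0616 to 0.104).

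The classic imprinted genes instead differed between clones. Snrpn was at 100, 68.3, 66.1, 99.8 and 100%, Sgce at 6.21, 52.5, 91.9, 97.7 and 99.5%, Ndn at 100, 57.2, 87.4, 52.7 and 100% and Airn at 0.232, 66.9, 64.1, 99.7 and 100%. The male clones read Snrpn, Sgce and Airn from the paternal Cast copy, while the female clones ran from 129 to Cast or read both. The 0 reads of 129 in Astro_129 and Astro_mE6 allow up to 0.718 and 1.04% for Snrpn and 1.17 and 2.91% for Ndn, and those in Astro_mE6 up to 0.625% for Airn. None of these 4 was called (edgeR adjusted p from 0.124 to 0.581), and Adam23, at 1.28, 33.2, 27.8, 36.1 and 33.4%, was not called either (-1.68 ± 0.81 on the log2 scale, edgeR adjusted p = 0.178). The log2 fold change of Adam23 was -1.05 without Astro_129, the clone with the low value, and the gene was then called. The gene lies on chromosome 1, which leaned to 129 as a whole in that clone.

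**Figure D4:**
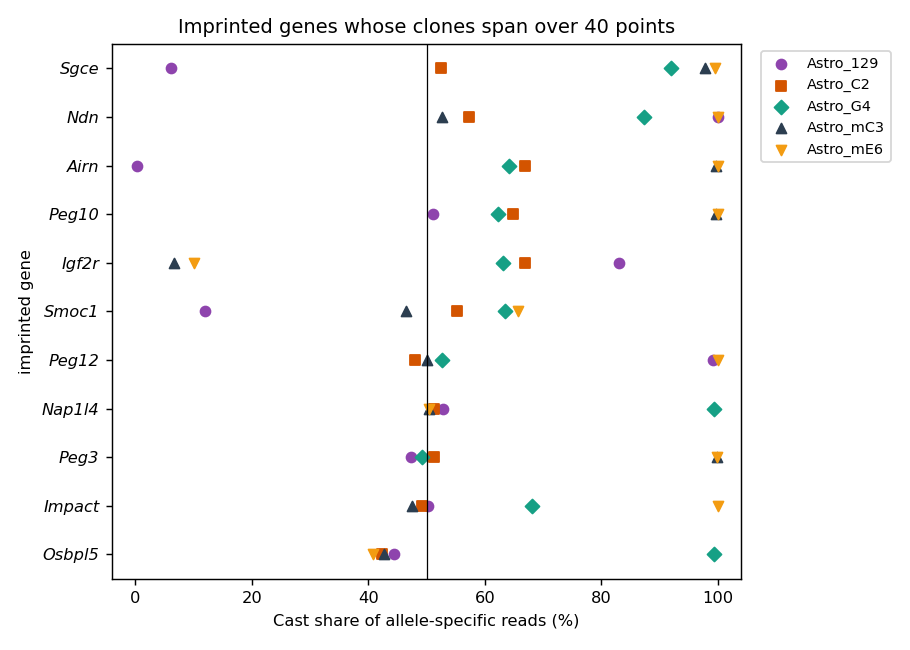
Cast share of allele-specific reads (x axis, %) in each of the 5 clones for the imprinted genes (y axis) with at least 100 reads in each clone whose lowest and highest clone were more than 40 points apart, a limit chosen after the values were seen. Peg3 is near 50% in the 3 female clones and at 99.9% in both male clones, while Sgce runs from 6.21% in Astro_129 to 99.5% in Astro_mE6.

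Pseudogenes gave the most extreme shares. Of 103 pseudogenes tested 72 were called (69.9%, against 30.7% of all genes), 40 to Cast and 32 to 129. Of these, 40 were outside 15 to 85% in every clone, and the median fold of the 72 was 25.1 against 1.36 for called protein-coding genes. Rpsa-ps4 had 0 reads from 129 among 2094 over the 5 clones, which allows a share of up to 0.143%, and Gm10156 had 1 among 3567. Gm17415 had 0 reads from Cast among 1460, which allows up to 0.205%, and Rpl7a-ps3 had 3 among 4861. Each of these holds in all 5 clones, and no fold is given for an allele with 0 to 3 reads. Reads shared with near copies also touch genes that code for protein. Among protein-coding genes with a value, those with at least 20% of their 31-base stretches in more than 1 place made up 8.92% of the tested genes, 11% of the called ones and 12% of those past 2-fold. They were 11 of the 37 (29.7%) outside 15 to 85% in every clone. Of the protein-coding genes alone, 3076 of 10234 were called, 519 of them past 2-fold and 37 outside 15 to 85% in every clone, and of 240 genes of other classes 103 were called.

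The same genes were then read in NPC clones, which the astrocyte calls did not use. In the 3 poly(A) NPC clones 2227 of 11030 genes were called (20.2%), but 0 when NPC_F5, NPC_mG2 or NPC_mG6 was left out, where edgeR gave 3526, 3311 and 2709 genes an unadjusted p under 0.05. Of 3106 astrocyte-called genes, outside the imprinted ones, with 20 reads in each NPC clone, 2507 (80.7%) lay on the astrocyte side in all 3, against 42.4% of the genes not called in astrocytes. Of the same 3106 genes 1323 (42.6%) were called in the same direction in NPCs and 18 in the opposite one. In the 4 Ch clones 60.2% of called genes lay on the astrocyte side in all 4, against 33.3% of genes not called. Among the named genes, Creb3 was at 95.6, 96.3 and 96.8% in the NPC clones F5, mG2 and mG6, Nfatc3 at 0.680, 5.46 and 0.929%, Sptan1 at 33.7, 31.3 and 30.1% and Rps15 at 12.6, 12.9 and 11.8%, each on the side it had in astrocytes in all 3. Other named genes were not, such as Myo16 at 45.8, 49.3 and 49.4%, Zfp36 at 58.6, 1.11 and 7.89% and Rflnb at 49.9, 61 and 56.6%. Of these, Myo16 lay on the other side in all 3 clones and Zfp36 and Rflnb in NPC_F5. Some NPC clones were uneven over a whole chromosome. The median Cast share of chromosome 12 was 100% in Ch5, Ch7 and Ch8 and 64.1% in NPC_F5. That of chromosome 18 was 0.0806% in NPC_mG2, and that of chromosome 1 was 32.3 to 32.7% in the 4 Ch clones.

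A smaller set of genes had a strain difference that was unlike in astrocytes and the 3 poly(A) NPC clones. The test of that difference was past adjusted p 0.05 in 92 of 10195 genes (0.902%), of which 67 were called in astrocytes and 51 had means on opposite sides of 50%. In 44 the astrocyte ratio was nearer to Cast and in 48 nearer to 129. The count was smaller without Astro_C2 (53), Astro_mC3 (61), Astro_mE6 (21), NPC_F5 (5), NPC_mG2 (20) or NPC_mG6 (23), and larger under DESeq2 (523) and without the windows of unequal balance (271). Of the 7 genes described here, 5 were chosen by the smallest p of this test, and the Ch clones took no part in it. Greb1 was the largest of these among the named genes, with 68.2, 71.9 and 76.3% in the poly(A) NPC clones against 95.5 to 98.3% in astrocytes, a difference of 3.82 ± 0.34 on the log2 scale (SE, 5 and 3 clones, edgeR adjusted p = 0.00604). In Ch3, Ch5, Ch7 and Ch8 it was at 83.9, 100, 99.1 and 100%, above every astrocyte clone in the last 3, where the median of chromosome 12, on which it lies, was 100%. The 0 reads of 129 allow up to 4.11% in Ch5 and 3.66% in Ch8. Pdk1 was at 40.3, 45.5 and 47.9% in the poly(A) NPC clones, 54.9, 49.6, 45.9 and 46.3% in the Ch clones and near 30% in astrocytes, a difference of -0.87 ± 0.12 on the log2 scale (SE, 5 and 3 clones, edgeR adjusted p = 0.0304). Olfm2, a secreted olfactomedin, was at 45.2, 43.5, 42, 42.2 and 41.3% in astrocytes, 24.5, 24.3 and 25.1% in the poly(A) NPC clones and 24.6, 29.5, 34.2 and 33.1% in the Ch clones, nearest to even in astrocytes, with a difference of 1.2 ± 0.06 on the log2 scale (SE, 5 and 3 clones, edgeR adjusted p = 0.00170). For Mlxip, a glucose-sensing transcription factor, astrocytes had 35.8, 33.6, 33.4, 34.1 and 36.6%, the poly(A) NPC clones 51.2, 54.5 and 55.5% and the Ch clones 57, 46.9, 54.3 and 59.4%. Atoh8, a bHLH factor, was at 42.1, 43, 39.9, 41.3 and 40.9% in astrocytes, 54.9, 54.4 and 55% in the poly(A) NPC clones and 58.6, 61, 51.9 and 51.9% in the Ch clones. In both, the poly(A) NPC clones were slightly above 50% and astrocytes below it, with differences of -1.13 ± 0.08 on the log2 scale (SE, 5 and 3 clones, edgeR adjusted p = 0.00604), and -0.77 ± 0.06 on the log2 scale (SE, 5 and 3 clones, edgeR adjusted p = 0.00604). Ralgapa1, which acts on Ral GTPases, was nearer to Cast in astrocytes, at 58.1, 57.2, 56.8, 57 and 57.6% against 45.9, 47.3 and 47.7% in the poly(A) NPC clones, a difference of 0.60 ± 0.04 on the log2 scale (SE, 5 and 3 clones, edgeR adjusted p = 0.00604). It too lies on chromosome 12 and was at 46.3, 100, 99.6 and 100% in the Ch clones. The 0 reads of 129 allow up to 0.455% in Ch5 and 0.459% in Ch8. Rnf182, a ubiquitin ligase, was at 28.9, 26.7 and 30.5% in the poly(A) NPC clones, 19.5, 23.4, 35.3 and 42.7% in the Ch clones and 47.6, 47.7, 43.5, 47.4 and 47.7% in astrocytes, a difference of 1.13 ± 0.09 on the log2 scale (SE, 5 and 3 clones, edgeR adjusted p = 0.00604). Its own astrocyte call (log2 -0.19 ± 0.05) was lost without Astro_129, Astro_C2, Astro_mC3 or Astro_mE6 (adjusted p 0.0779 to 0.106), and under TMM, DESeq2 and limma among other settings. The difference from NPCs was no longer past the threshold without NPC_F5 for Greb1 (adjusted p 0.0523), Atoh8 (0.0599) and Rnf182 (0.0523). For Pdk1 this was so without any of the 8 clones other than Astro_mC3 (adjusted p 0.0526 to 0.116). Cell type and clone cannot be told apart in this comparison, since no clone was measured in both cell types here.

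**Figure D5:**
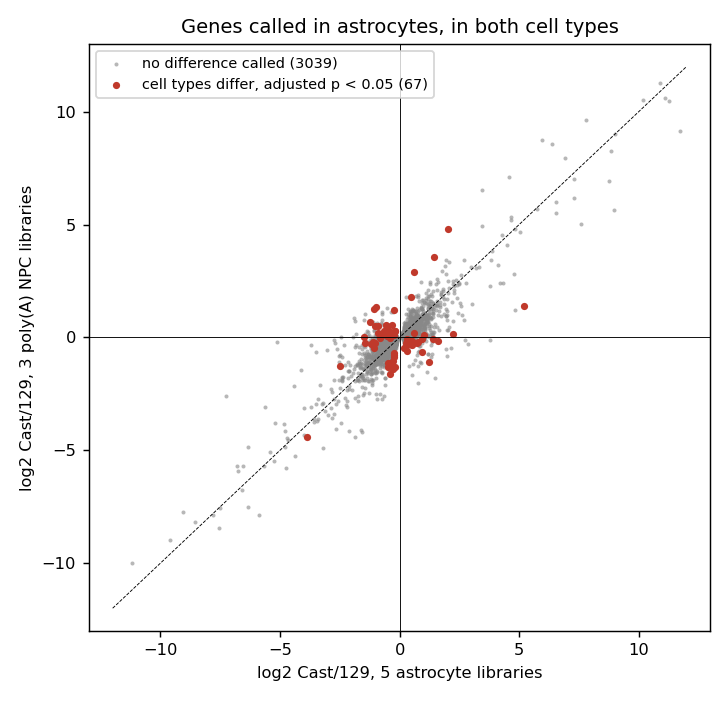
Log2 ratio of Cast to 129 reads in the 3 poly(A) NPC libraries (y axis) against the 5 astrocyte libraries (x axis) for the genes called in astrocytes, with genes whose difference between the cell types had an adjusted p under 0.05 in red. Grey points mostly follow the dashed line of equal ratios, and the 67 red points lie away from it.

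Female and male clones differed in 1 of 10621 genes (0.00942%), with 450 genes at an unadjusted p under 0.05 and 65 past the threshold under DESeq2. That gene was Peg3, a paternally expressed imprinted gene, with Cast shares of 47.3, 51.2, 49.3, 99.9 and 99.9%. The 3 female clones read both copies and the 2 male clones almost only Cast, a difference of -10.22 ± 0.24 on the log2 scale for female minus male (SE, 3 and 2 clones, edgeR adjusted p = 0.00867). Without Astro_129 or Astro_C2 edgeR called 0 genes, with 614 and 442 at an unadjusted p under 0.05. Among the NPC clones the male NPC_mG6 also read both copies of Peg3, at 52%, as did the female NPC_F5, at 49%. The male NPC_mG2 was at 99.8% and the 4 male Ch clones at 99.9% or more. Outside the imprinted list, edgeR called no difference in strain bias between the sexes or stem cell lines with these 5 clones.

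Genes that the study examined were not called for a strain bias shared by the clones, although several were far from even in single clones. Of 13 such genes 5 had enough reads in all clones, and 0 were called by edgeR, with 0 at an unadjusted p under 0.05 and 0 called under DESeq2. They were App, which encodes the amyloid precursor protein, the co-chaperone gene Bag3 and the phosphatase genes Eya1, Eya3 and Eya4. Bag3 was at 99.9, 57.6, 64.9, 59.6 and 0.135%, almost wholly Cast in Astro_129 and almost wholly 129 in Astro_mE6. Eya4 was at 0.399, 42.5, 13.9, 97.2 and 53.1%, almost wholly 129 in Astro_129 and almost wholly Cast in Astro_mC3, and Eya1 at 37.6, 91.2, 91.3, 50.4 and 82.3%. Eya1 had 160, 23 and 62 allele-specific reads in Astro_C2, Astro_G4 and Astro_mE6. It lies on chromosome 1, in a 20 Mb window where Astro_129 had a median Cast share of 34.6%. The log2 ratios were 0.63 ± 2.15 (SE, n = 5, edgeR adjusted p = 0.844) for Bag3, -0.91 ± 1.78 (SE, n = 5, edgeR adjusted p = 0.725) for Eya4 and 1.21 ± 0.76 (SE, n = 5, edgeR adjusted p = 0.287) for Eya1. App was at 62, 55.9, 56.6, 54.2 and 47.3%, above 50% in 4 clones and below it in Astro_mE6, with a log2 ratio of 0.30 ± 0.13 (SE, n = 5, edgeR adjusted p = 0.132). Eya3, in the part of chromosome 4 that leaned to 129 in Astro_G4, was at 49.4, 45.5, 9.48, 49.2 and 48.4%, below 50% in all 5 clones and far from even in Astro_G4 alone, with a log2 ratio of -0.62 ± 0.54 (SE, n = 5, edgeR adjusted p = 0.431).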

How the data were processed

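RNA-seq reads had been aligned by the authors with TopHat2 2.1.0 and Bowtie2 to the mouse genome GRCm38 and assigned to genes with featureCounts 1.5.1. The deposited values used here are in the unit count, for all reads and for the reads of each allele, and the deposited allelic ratios are in the unit fraction. Cast and 129 counts were compared within each library by edgeR 4.0.16, with library as a term, equal scaling of both alleles and p-values adjusted over all autosomal genes in which every library held 20 or more reads assigned to an allele. With 1 library per clone, p-values measure the spread between clones. Alternatives were TMM factors, DESeq2 1.42.0, limma 3.58.1 with a pseudocount of 0.5, read minimums of 10, 50 or none, no pairing, no windows of unequal balance (20 Mb), adjusted p alone and leaving out clones. Named genes were, by rule, the 10 largest called differences in each direction with 100 reads in every clone, the 5 with the most reads past 2-fold, the 3 largest of each list, the imprinted genes nearest to 0 and 100%, the 2 largest pseudogenes in each direction, the 5 with the smallest p for the difference from NPCs, those that differed by sex, and genes the study examined. Members and lists were chosen with earlier results of these data known. Repeated sequence was measured on GENCODE transcripts in 31-base steps against NCBIM37, an older build than GRCm38, with 20% as the limit, set after values were seen. Software was R 4.3.3 and Python 3.11.15 with numpy 2.4.6, pandas 2.3.3, scipy 1.17.1, matplotlib 3.10.9 and numba 0.67.0, and the fits were tested on simulated data.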

Additional observations from a re-analysis of the deposited data

Results flagged for a closer look

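In 16 of the 88 named genes 1 clone stood apart from the other 4 in its Cast share, by the gap to the nearest clone over the whole range. Chance gives about 1 in 20 groups, a value that need not hold for genes chosen for extreme shares, and the measure takes no account of the size of the gap. In Astro_129 these were Gstm3 (97.5%), Nptx1 (18%), Zfp14 (29.7%) and Adam23 (1.28%). In Astro_C2 they were Cers4 (72.5%), Ifit2 (20.6%), Rps6 (79.5%) and Gm10156 (99.8%), where the gap was 1 read of 614 and the other clones were at 100%. In Astro_G4 they were Aga (63.3%), Pmvk (42.6%), Cox6c (39.6%), Rnf182 (43.5%) and Eya3 (9.48%). In Astro_mC3 they were Abca8b (20.3%) and Acat2 (62.2%), and in Astro_mE6 Plpp4 (24.2%). Pmvk and Eya3 lie in windows where Astro_G4 leaned as a whole, and Adam23 in a window where Astro_129 did.

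The strain difference changed between astrocytes and NPCs by the test of that change in 7 named genes. On the log2 scale, astrocytes minus NPCs, it was 3.82 for Greb1, 1.2 for Olfm2, 1.13 for Rnf182, 0.60 for Ralgapa1, -0.77 for Atoh8, -0.87 for Pdk1 and -1.13 for Mlxip. Between female and male clones the difference was -10.22 for Peg3.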

How the results depend on the processing

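No named gene was called in the opposite direction under any alternative, and 37 of the 77 called named genes kept their call under all of them, or 55 with the fit without pairing set aside. More genes leaned to 129 than to Cast in all settings, with the share of Cast at 39.5% of the calls, 47.1% under TMM and 48.2% under DESeq2. The fit without the replicate block, which does not pair the alleles by library, gave 134 Cast-biased genes, 211 biased to 129, 345 in all and 276 past 2-fold. With each clone left out in turn the counts were 794 to 1191 (Cast), 1218 to 1888 (129), 2012 to 3079 (all) and 525 to 654 (past 2-fold), lowest without Astro_mC3, and 806, 1243 and 2049 without Astro_mE6. Leaving out both Astro_129 and Astro_G4, chosen after seeing the data, gave 953, 1486 and 683 past 2-fold. In NPCs DESeq2 called 3432 genes, and the fits without 1 clone, which have 2 clones, called 0 to 0 (edgeR, 2709 to 3526 at an unadjusted p under 0.05). The difference between astrocytes and NPCs was called in 523 genes by DESeq2, in 271 without the windows of unequal balance, and in 5 (without NPC_F5) to 105 genes with a clone left out. The difference between the sexes was called in 65 genes by DESeq2 and in 0 to 1 by edgeR with a clone left out (442 to 618 at an unadjusted p under 0.05). The cause of these changes was not tested. Of the 77 called named genes, 57 kept the call with any single clone left out.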
